A study of Homo sapiens with 60 samples.

Results

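The genes described here are 10 immediate early and AP-1 genes, FOS, FOSL1, FOSL2, JUN, JUNB, JUND, EGR1, IER2, IER3 and MYC, in HT29 cells. HT29 is an established line grown from a human colon carcinoma. The genes were taken by symbol from a table of 60675 genes, and all 10 were among the 16484 genes with enough counts to be tested. The study treated the cells for 24 h with a water extract at 20, 100 or 500 µg/mL (low, medium and high dose) or with DMSO as vehicle, at 0.1% per the sample labels and 2% per the series design text. The extracts were Aconiti Lateralis Radix Preparata (processed aconite root), Bupleuri Radix (bupleurum root), Cimicifugae Rhizoma (cimicifuga rhizome), Citri Unshius Pericarpium (mandarin peel) and the multi-herb formulas Banhasasim-tang, Yijung-tang and Bojungikgi-tang. Each of the 18 extract and dose groups outside Bojungikgi-tang had 3 libraries, vehicle had 3 and Bojungikgi-tang had 1 per dose. HT29 is a single established line, so every value comes from 1 genetic background.

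AP-1 is a dimer of basic leucine zipper proteins, either of 2 JUN proteins or of a JUN and a FOS protein, that binds a short palindromic site in DNA. FOS, JUN, EGR1, IER2, IER3 and MYC are immediate early genes: growth factors, cytokines and stress raise their mRNA within minutes through MAP kinases acting on factors that already sit at their promoters, and the mRNAs are short-lived. A level read after a full day of treatment is therefore a late level, not the first peak. In colon epithelium, AP-1 and MYC act downstream of ERK and Wnt signalling, and HT29 carries an activating BRAF mutation, which feeds the ERK pathway without a ligand.

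The promoters of 5 of the genes are shown: 4 of them (FOS, EGR1, JUN and JUNB) were each called higher at the high dose of the aconite extract. JUND did not pass the test there. IER2 was also called higher there and has a promoter entry, but its sequence is not shown. The sequences are RefSeq's for GRCh38.p14, 300 bases each (250 before the start and 50 after it), at chr14:75278578-75278877 on the plus strand, chr5:138465229-138465528 on the plus strand, chr1:58783998-58784297 on the minus strand, chr19:12791236-12791535 on the plus strand and chr19:18281573-18281872 on the minus strand. Both strands were searched, and capitals mark matches. A first motif was TGACG, the core of the cyclic AMP response element, which is part of that element's full form, a palindrome. The others in capitals were the AP-1 site, the EGR site and the serum response element, whose letters or names are given with their counts after the sequences.
FOS: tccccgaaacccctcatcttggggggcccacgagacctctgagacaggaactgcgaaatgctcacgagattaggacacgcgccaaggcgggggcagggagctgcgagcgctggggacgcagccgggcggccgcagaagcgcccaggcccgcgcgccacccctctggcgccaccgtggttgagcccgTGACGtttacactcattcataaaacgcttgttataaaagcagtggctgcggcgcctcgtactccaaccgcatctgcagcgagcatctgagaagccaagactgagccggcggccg
EGR1: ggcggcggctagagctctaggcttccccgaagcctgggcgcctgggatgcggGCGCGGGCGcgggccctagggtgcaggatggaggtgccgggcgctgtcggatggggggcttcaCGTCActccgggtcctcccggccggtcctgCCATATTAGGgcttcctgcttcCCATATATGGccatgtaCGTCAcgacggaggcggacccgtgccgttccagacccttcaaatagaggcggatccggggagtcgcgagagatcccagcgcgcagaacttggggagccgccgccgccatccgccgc
JUN: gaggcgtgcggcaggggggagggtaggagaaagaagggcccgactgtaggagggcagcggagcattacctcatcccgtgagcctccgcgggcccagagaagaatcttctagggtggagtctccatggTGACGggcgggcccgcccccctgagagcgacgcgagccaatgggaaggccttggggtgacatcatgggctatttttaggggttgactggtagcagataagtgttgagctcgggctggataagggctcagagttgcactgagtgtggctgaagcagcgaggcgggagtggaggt
JUNB: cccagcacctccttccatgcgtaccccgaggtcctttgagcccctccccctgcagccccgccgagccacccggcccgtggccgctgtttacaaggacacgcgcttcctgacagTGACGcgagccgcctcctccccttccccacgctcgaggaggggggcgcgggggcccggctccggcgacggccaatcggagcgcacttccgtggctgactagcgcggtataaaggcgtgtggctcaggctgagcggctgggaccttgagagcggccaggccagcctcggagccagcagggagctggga
JUND: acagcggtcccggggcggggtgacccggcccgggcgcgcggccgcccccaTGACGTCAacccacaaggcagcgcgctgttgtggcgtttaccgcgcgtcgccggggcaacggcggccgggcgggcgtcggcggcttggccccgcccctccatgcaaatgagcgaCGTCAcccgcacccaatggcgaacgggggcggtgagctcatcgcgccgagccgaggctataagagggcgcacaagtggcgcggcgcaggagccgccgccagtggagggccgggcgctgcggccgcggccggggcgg
All 7 members with an entry in that promoter table (those 5, FOSL2 and IER2) held TGACG at least once, against 24.6% of 35116 promoters of that length. The full palindrome TGACGTCA was found in 1 of the 7, JUND, against 1.85% of all promoters. The serum response element was found in 1 of the 7, EGR1, which holds 2 of them, against 1.29% of all promoters. EGR1 was also the 1 member with GCGNGGGCG, found in 9.43% of all promoters. TGANTCA was found in 1 of the 7, FOSL2, against 7.71%, and GGAAG, the core bound by ETS factors and left in lower case, in 5 of the 7 against 71.9%. These are matches of letters in a short window, not measured binding. Variants of the motifs and sites outside the window were not sought, so a motif not found here may still be present in another form or place. No promoter is given for FOSL1, IER3 and MYC.

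Library totals ran from 10.35 to 40.05 M counts with a median of 23.83 M, and the smallest count of any member in any tested library was 174, for FOS. All 10 colon epithelial marker genes were detected (EPCAM, CDH1, KRT8 and others), with a summed level of 10300 to 13200 CPM, where CPM is the count scaled to a common library total of 1 M after TMM scaling. At the aconite high dose against vehicle, CEACAM5, CDX2 and KRT20 were called higher, by 0.71, 0.40 and 0.26 log2. VIL1 was called lower, at -0.21 log2, and the other epithelial markers did not pass. The fibroblast markers summed to at most 2.74 CPM and the endothelial markers to at most 2.73 CPM. Of the fibroblast markers, LUM averaged 1.45 CPM at the aconite high dose and 0.806 CPM in vehicle. It was called higher (0.88 ± 0.28 log2, adjusted p = 0.0238, edgeR). Of the immune cell markers, PTPRC and CD3E reached at most 0.126 and 0.0507 CPM in any library. CD68, a lysosomal protein gene used as a macrophage marker, averaged 9.94 CPM at the aconite high dose and 7.39 CPM in vehicle and was called higher (0.57 ± 0.14 log2, adjusted p = 0.00398, edgeR). CD14 averaged 2.92 CPM at the aconite high dose and 3.71 CPM in vehicle, and LYZ, the lysozyme gene, 1400 and 1750 CPM, and neither passed (adjusted p = 0.572 and 0.198). The part of these genes' cells in the results was not tested. All 60 titles carry the same batch name, but the sample codes in the descriptions open with a field that vehicle shares with no extract, aconite shares with bupleurum, mandarin peel with cimicifuga and Yijung-tang with Banhasasim-tang, and that Bojungikgi-tang has alone. The labels do not say what that field stands for, and libraries that share it are called a library set here. RN7SL2, a small cytoplasmic RNA, stood at 3.45 to 9.9 CPM in 15 libraries (vehicle and replicates 1 and 2 of the mandarin peel and cimicifuga groups) and at 40.87 to 237.18 CPM in the other 42. If that field marks libraries made or read together, extract and set cannot be told apart in any comparison with vehicle, whereas comparisons of doses, or of 2 extracts of a set, lie within a set. Aconite high library 2 stood apart: it held 15.94 M counts, 237.18 CPM of RN7SL2, and ribosomal protein mRNAs a median of 0.50 log2 above the mean of its group. Results at the aconite high dose are given with and without it.

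Per kilobase of annotated exon, the order of the genes in vehicle cells began with MYC, at 76.3 ± 3.6 CPM per kb (SD, n = 3), and ended with FOS at 5.37 ± 0.482. IER3, an early response gene with roles in cell survival and ERK signalling, came next at 49.3 ± 8.63, followed by JUNB at 27.0 ± 3.67 and JUND at 21.0 ± 2.61 CPM per kb. FOSL1, JUN and IER2 lay at 13.8 ± 0.521, 13.6 ± 0.585 and 13.4 ± 0.924 CPM per kb and did not differ beyond their spread, nor did EGR1 at 10.9 ± 0.14 and FOSL2 at 10.2 ± 0.801. The highest of the 19 group means exceeded the lowest by 1.16-fold for MYC, the steadiest, and by 1.84-fold for IER3, the widest. Single libraries ranged more widely, from 28.95 to 66.11 CPM for EGR1, 24.03 to 50.81 CPM for JUND and 47.35 to 96.82 CPM for FOSL2. Of the 10 genes, 6 had their highest group mean at the aconite high dose (FOS, FOSL1, JUN, JUNB, IER2 and IER3), where 20.0% of all tested genes had theirs. FOSL2 and EGR1 were highest at the aconite medium dose, MYC at the bupleurum high dose and JUND in vehicle.

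**Figure D1:**
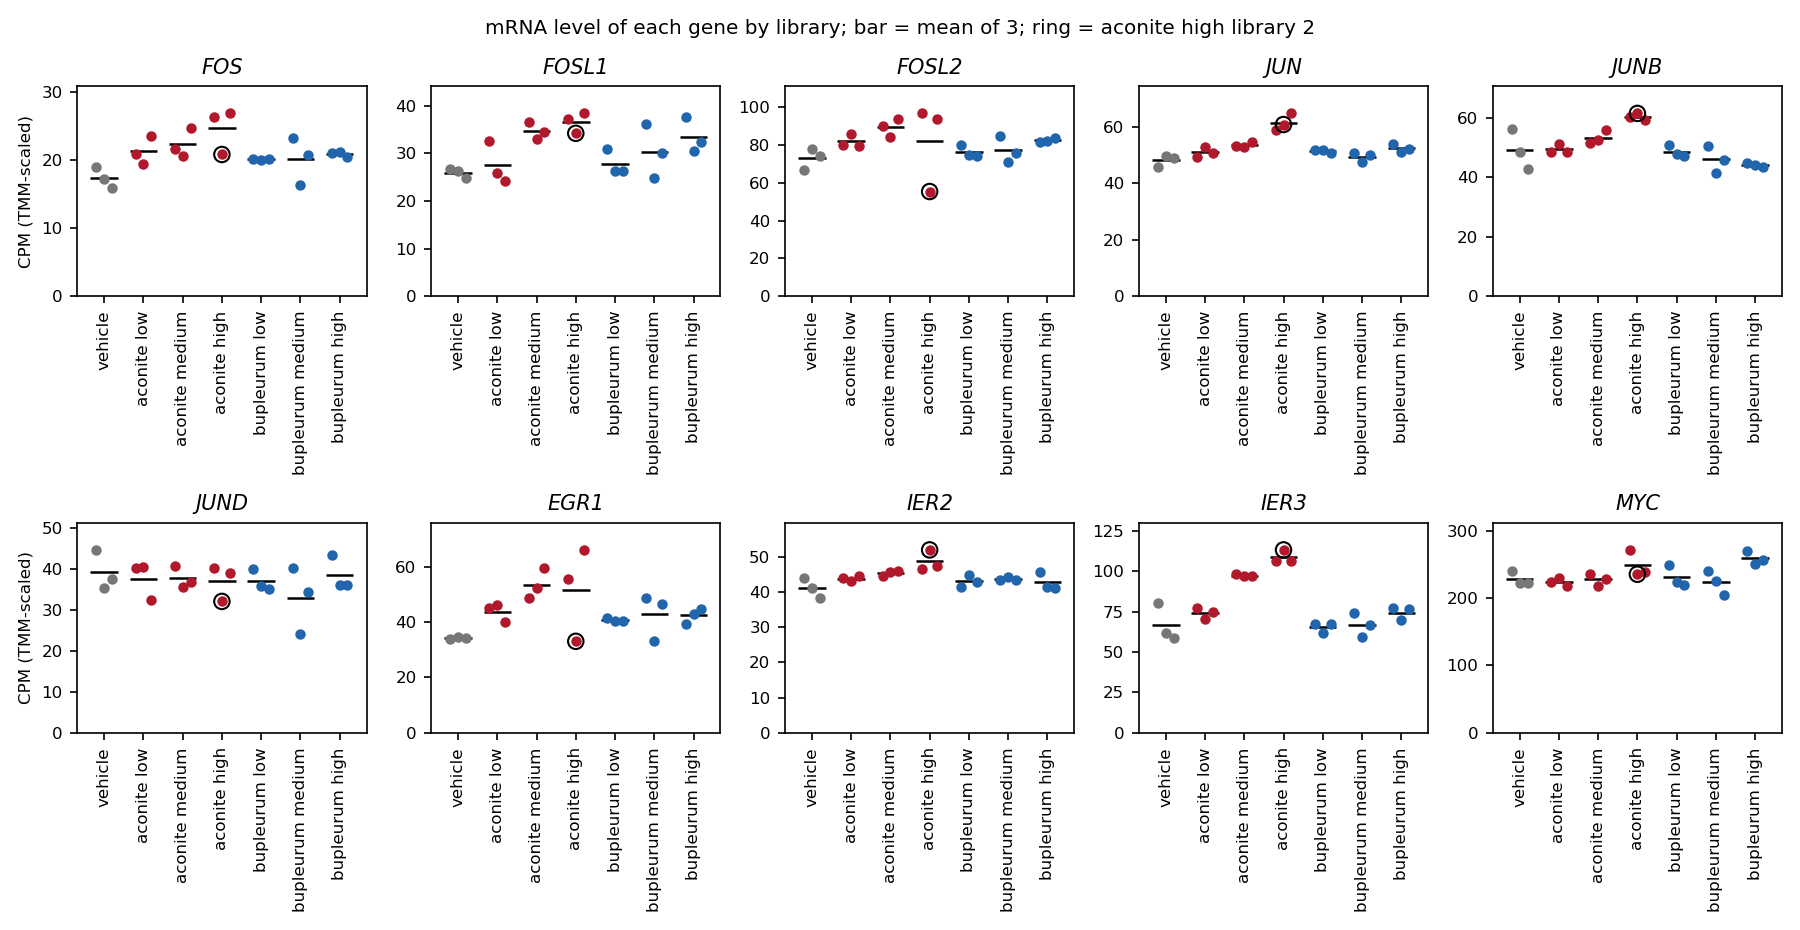
CPM (TMM-scaled, vertical axis) of each gene in the 3 libraries of vehicle and of the low, medium and high doses of the aconite and bupleurum extracts; points are libraries, bars are means of 3, and the ring marks aconite high library 2. IER3 at the aconite high dose lies between 106.42 and 113.3 CPM, above every vehicle and bupleurum library. The ringed library lies lowest of its group for FOS, FOSL1, FOSL2, JUND, EGR1 and MYC, and highest for JUNB, IER2 and IER3.

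At the high dose of the aconite extract, 7 of the 10 genes were higher than in vehicle cells and none was lower. IER3, EGR1, FOS, FOSL1, JUN, JUNB and IER2 rose by 0.24 to 0.70 log2, that is by less than 2-fold, and FOSL2, JUND and MYC did not pass the test. The test was edgeR's quasi-likelihood test on all 57 libraries with Benjamini-Hochberg adjustment over all tested genes, at an adjusted p of 0.05. In this comparison 15.9% of all tested genes were called in either direction and 8.58% were called higher. The median log2 fold change was 0.33 for the 10 genes and 0 for all tested genes. For 6 of the 10, all 3 aconite high libraries lay above all 3 vehicle libraries, which held for 10.3% of all tested genes. The bupleurum high libraries also lay above all 3 vehicle libraries for 6 of the 10. The share of all tested genes with that separation is not given, so this count has no background to be read against. The median log2 fold change there was 0.17 for the 10 and 0 for all tested genes. At an unadjusted p under 0.05 there were 5 of the 10 (edgeR), beside 2328 of the 16484 tested genes. In RNA from a whole culture, more RNA per cell and a larger share of cells that make it cannot be told apart.

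Among the FOS proteins, which bring DNA binding to AP-1 only as partners of a JUN protein, FOS itself stood at 26.4, 20.9 and 26.9 CPM in the aconite high libraries, against 18.98, 17.23 and 15.87 CPM in vehicle. Its log2 fold change was 0.53 ± 0.10 (SE, adjusted p = 0.000136, edgeR), and the groups did not overlap although library 2 lay well below libraries 1 and 3. FOSL1 (FRA-1), the FOS relative most tied to sustained ERK signalling in carcinoma cells, held 37.1, 34.2 and 38.4 CPM at the aconite high dose and 26.7, 26.4 and 24.8 CPM in vehicle, a log2 fold change of 0.50 ± 0.11 (adjusted p = 0.00132). FOSL2 (FRA-2) had 96.8, 55.4 and 93.6 CPM at the aconite high dose and 66.8, 78.0 and 74.2 CPM in vehicle. Libraries 1 and 3 lay above vehicle and library 2 below, and the log2 fold change of 0.17 ± 0.11 did not pass (adjusted p = 0.337). Without library 2 it was 0.38 ± 0.09 and passed (adjusted p = 0.00342).

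Among the JUN proteins, JUN, the strongest activator of the family, had 59.0, 60.9 and 64.8 CPM at the aconite high dose and 45.8, 49.6 and 49.0 CPM in vehicle. It varied least within groups, with a median coefficient of variation of 3.53% over the 19 groups, and its log2 fold change of 0.36 ± 0.06 had an adjusted p of 6.14e-06 (edgeR). JUNB, a JUN protein that can restrain JUN and growth, had 60.3, 61.5 and 59.2 CPM at the aconite high dose and 56.1, 48.4 and 42.8 CPM in vehicle. Its 3 aconite libraries were close together and above a widely spread vehicle group, with a log2 fold change of 0.30 ± 0.08 (adjusted p = 0.008). That call was lost without vehicle library 3 (log2 fold change 0.21, adjusted p = 0.1) and with a term for the RN7SL2 level (0.19, adjusted p = 0.187). JUND, which most cells keep at a steady level, had 40.1, 32.0 and 39.0 CPM at the aconite high dose and 44.6, 35.3 and 37.4 CPM in vehicle. Its groups overlapped throughout, with a log2 fold change of -0.07 and a 95% interval of -0.34 to 0.21.

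EGR1, a zinc finger factor induced through serum response elements such as the pair shown above, had 55.7, 33.0 and 66.1 CPM at the aconite high dose and 33.8, 34.6 and 34.4 CPM in vehicle. Library 2 lay just below the vehicle libraries, and libraries 1 and 3 lay well above them. The log2 fold change was 0.61 ± 0.12 (adjusted p = 0.000295, edgeR) with library 2 and 0.83 ± 0.10 (adjusted p = 5.8e-09) without it. IER3 had 106.5, 113.3 and 106.4 CPM at the aconite high dose and 80.2, 61.6 and 58.8 CPM in vehicle. It changed most, by 0.70 ± 0.10 log2 (adjusted p = 1.44e-06), and here library 2 was the highest of the 3. IER2, a nuclear protein of early growth responses, had 46.6, 52.1 and 47.6 CPM against 44.1, 41.3 and 38.4 CPM in vehicle, the smallest of the 7 calls at 0.24 ± 0.07 log2 (adjusted p = 0.0126). That call was lost without aconite library 2 (log2 fold change 0.19, adjusted p = 0.0693), without vehicle library 3 (0.19, adjusted p = 0.0893), with the RN7SL2 term (0.16, adjusted p = 0.198) and without a filter on low counts (adjusted p = 0.0632).

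MYC, the growth factor response gene that drives ribosome making and the cell cycle, had 271.7, 235.5 and 239.3 CPM at the aconite high dose and 241.0, 223.1 and 221.7 CPM in vehicle. The groups overlapped, and the log2 fold change of 0.12, with a 95% interval of 0.01 to 0.24, missed the threshold after adjustment (adjusted p = 0.161).

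The call of 7 members against vehicle depended on how the spread was estimated. With only the aconite high and vehicle libraries in the fit, 0 of the 7 calls were kept, with or without the replicate number as a block, and 181 genes in all were called in place of 2615. When library 2 was left out of that fit as well, 6 members were called (all but JUNB and IER2 of the 7, and FOSL2), and 1598 genes in all. Without library 2 in the fit of all groups, 7 members were called, and 2918 genes in all.

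**Figure D2:**
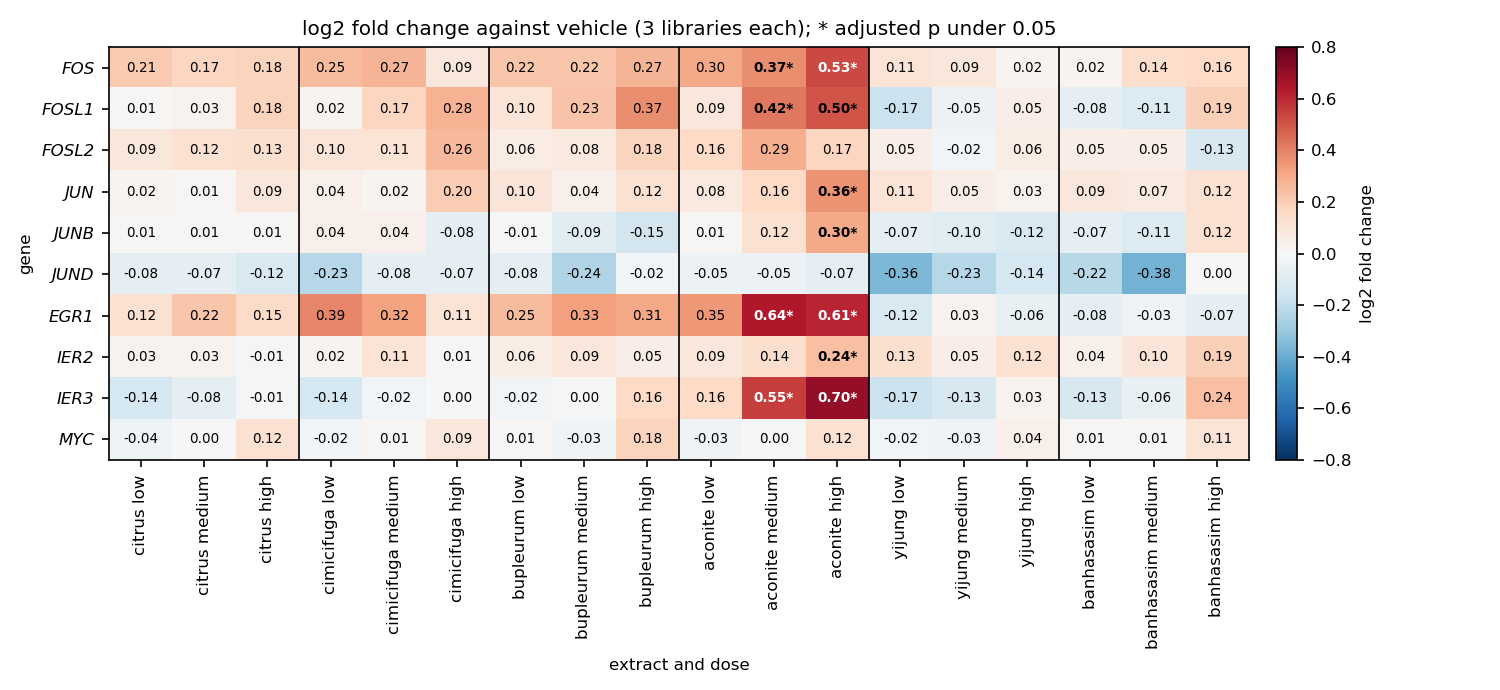
Log2 fold change against vehicle (colour and printed value) of each gene (rows) for the 18 extract and dose groups (columns), 3 libraries a group; a star marks an adjusted p under 0.05, and citrus, yijung and banhasasim stand for mandarin peel, Yijung-tang and Banhasasim-tang. Stars appear for the aconite medium and high doses and nowhere else.

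At the medium aconite dose, 4 genes were higher than in vehicle, FOS, FOSL1, EGR1 and IER3, in a comparison in which 2.47% of all tested genes were called higher. EGR1 had 48.7, 52.3 and 59.5 CPM there, against 33.8, 34.6 and 34.4 CPM in vehicle, a log2 fold change of 0.64 ± 0.12 (adjusted p = 0.000409, edgeR). IER3 had 98.1, 96.9 and 97.1 CPM, against 80.2, 61.6 and 58.8 CPM in vehicle, and rose by 0.55 ± 0.10 log2 (adjusted p = 0.000395). FOS and FOSL1 rose by 0.37 and 0.42 log2 (adjusted p = 0.0212 and 0.0187). With a term for the RN7SL2 level, which divides the libraries partly as the sets do, EGR1 was the 1 call left of the 4, and IER3 missed at an adjusted p of 0.054. FOS and FOSL1 also lost their calls without vehicle library 2 or 3 or aconite medium library 3 (adjusted p between 0.0541 and 0.168), and FOSL1 without aconite medium library 1 (adjusted p = 0.102). At the low dose 0 of the 10 passed, where 1.61% of all tested genes were called, and the smallest adjusted p was 0.134, for FOS at 0.30 log2. At an unadjusted p under 0.05 there were 2 (FOS and EGR1), beside 2271 of the 16484 tested genes. DESeq2 called 0, whereas leaving out the 4 libraries farthest from their group means, vehicle library 1 among them, gave 3 calls (FOS, EGR1 and IER3).

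Group means followed the order vehicle, low, medium, high for 6 of the 10 genes under aconite (FOS, FOSL1, JUN, JUNB, IER2 and IER3), an order found for 8.97% of all tested genes. The same order held for 3 genes under bupleurum (4.79% of all tested genes), 3 under Banhasasim-tang (4.82%), 2 under mandarin peel (7.25%), 2 under cimicifuga (7.03%) and 0 under Yijung-tang (4.5%). IER3 averaged 74.3 ± 3.42, 97.4 ± 0.653 and 109 ± 3.94 CPM at the low, medium and high aconite dose (SD, n = 3 each), so that most of its step lay between low and medium. JUN averaged 51.0 ± 1.64, 53.7 ± 0.997 and 61.6 ± 2.96 CPM, with its step between medium and high.

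Within the aconite groups, which belong to a single library set, the high dose was above the low dose for 4 genes, FOSL1, JUN, JUNB and IER3, and below it for none, where 5.81% of all tested genes were called higher. IER3 at 106.5, 113.3 and 106.4 CPM in the high dose libraries, against 77.4, 70.6 and 75.0 CPM at the low dose, had a log2 fold change of 0.55 ± 0.10 (adjusted p = 0.00015, edgeR). JUN had 59.0, 60.9 and 64.8 CPM at the high dose and 49.5, 52.7 and 50.7 CPM at the low dose, and rose by 0.27 ± 0.06 log2 (adjusted p = 0.000514). FOSL1 rose by 0.41 ± 0.11 log2 (adjusted p = 0.0116) and JUNB by 0.29 ± 0.08 log2 (adjusted p = 0.0154). FOSL1 lost its call without low dose library 2 or 3 (adjusted p = 0.0752 and 0.0835) and JUNB without low dose library 1 or 3 (adjusted p = 0.0602 and 0.0505). All 3 high dose libraries lay above all 3 low dose libraries for 6 genes (those 4, IER2 and MYC), as they did for 9.29% of all tested genes.

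Without aconite high library 2, 6 members were higher at the high than at the low aconite dose: the same 4, with FOS (0.33 ± 0.10 log2, adjusted p = 0.0294, edgeR) and EGR1 (0.48 ± 0.09 log2, adjusted p = 0.000312). Over all tested genes that fit called 1295 genes in either direction, and the fit with library 2 called 1787. With only these 2 groups in the fit, 1 member was called (IER3) and 99 genes in all, and 7 members and 1192 genes when library 2 was left out too. FOSL2, JUND, IER2 and MYC differed between the doses by 0.01, -0.02, 0.15 and 0.15 log2 with all libraries and did not pass.

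The steps between neighbouring doses were added after the first results were seen. From low to medium, 0 of the 10 passed while 0.455% of all tested genes were called higher, with IER3 nearest at 0.39 ± 0.10 log2 (adjusted p = 0.0508, edgeR). There 3 members had an unadjusted p under 0.05, beside 915 of the 16484 tested genes. DESeq2 called 1, IER3, and so did the fit of the 2 groups alone (adjusted p = 0.00127). At the high against the medium dose JUN alone passed, by 0.20 ± 0.06 log2 (adjusted p = 0.028), where 2.21% of all tested genes were called higher. That call was lost without any 1 of the medium dose libraries or without high dose library 3 (adjusted p between 0.056 and 0.0927).

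Against bupleurum, the other extract of that library set, at the same high dose, 3 genes were higher under aconite, JUN, JUNB and IER3, and none was lower, while 5.91% of all tested genes were called higher. JUNB had the smallest adjusted p of the 3, with 60.3, 61.5 and 59.2 CPM under aconite and 44.7, 44.1 and 43.5 CPM under bupleurum, a log2 fold change of 0.45 ± 0.08 (adjusted p = 9.08e-05, edgeR). IER3 had 106.5, 113.3 and 106.4 CPM under aconite and 77.2, 69.8 and 76.5 CPM under bupleurum, 0.55 ± 0.10 log2 apart (adjusted p = 0.000171). JUN had 59.0, 60.9 and 64.8 CPM under aconite and 54.0, 51.0 and 52.4 CPM under bupleurum, 0.23 ± 0.06 log2 apart (adjusted p = 0.00386). All 3 aconite libraries lay above all 3 bupleurum libraries for 4 genes (these 3 and IER2), as for 10.4% of all tested genes. Without aconite high library 2 there were 5 calls, with FOS at 0.35 ± 0.10 log2 (adjusted p = 0.0214) and EGR1 at 0.53 ± 0.09 log2 (adjusted p = 8.86e-05) added. Over all tested genes that fit called 946 genes in either direction, and the fit with library 2 called 1625. With only these 2 groups in the fit, JUNB and IER3 passed, among 112 genes called in all. The JUN call was also lost without a filter on low counts (adjusted p = 0.0806).

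FOSL1 did not differ between aconite and bupleurum at the high dose beyond the spread, at 36.6 ± 2.15 and 33.5 ± 3.76 CPM (SD, n = 3 each), a log2 difference of 0.13 with a 95% interval of -0.08 to 0.35. MYC averaged 249 ± 19.9 CPM under aconite and 259 ± 10.0 CPM under bupleurum, and its log2 difference of -0.06 had an interval of -0.18 to 0.05. At the medium dose IER3 alone was higher under aconite than under bupleurum, by 0.54 ± 0.10 log2 (adjusted p = 0.000606, edgeR), in a comparison added later in which 0.959% of all tested genes were called higher. The difference between the high-minus-low steps of the 2 extracts, also added later, passed for JUNB, at 0.43 ± 0.11 log2 (adjusted p = 0.0342), and 1.01% of all tested genes were called higher in it. The JUNB call was lost in 8 of the 12 fits that left out 1 library, aconite high library 2 among them, with log2 differences of 0.39 to 0.44 in those 8. JUNB gained from low to high dose under aconite and had lower values at the high dose under bupleurum (44.1 ± 0.595 CPM at high, 48.6 ± 2.01 CPM at low). The corresponding differences of JUN and IER3 were 0.25 and 0.37 log2 and did not pass (adjusted p = 0.0998 and 0.268).

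**Figure D3:**
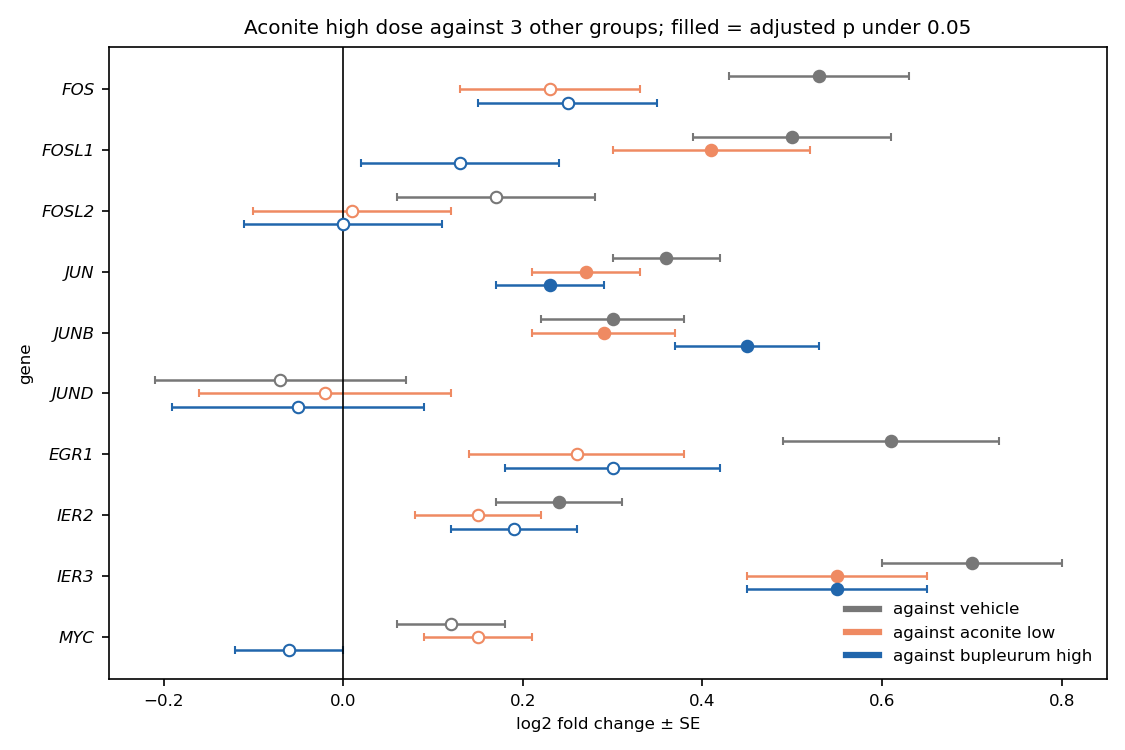
Log2 fold change ± SE (horizontal axis) of each gene (vertical axis) at the aconite high dose against vehicle, the aconite low dose and the bupleurum high dose, 3 libraries a group; filled points have an adjusted p under 0.05. JUN, JUNB and IER3 are filled in all 3 comparisons, and JUND lies near 0 in each.

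The 3 aconite comparisons share the aconite high libraries, so their values are not independent of each other. For JUN the log2 fold changes were 0.36 against vehicle, 0.27 against the low dose and 0.23 against bupleurum. For JUNB they were 0.30, 0.29 and 0.45, and for IER3 0.70, 0.55 and 0.55. EGR1 stood at 0.61, 0.26 and 0.30 and FOS at 0.53, 0.23 and 0.25, each called against vehicle only.

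Outside the aconite groups, none of the 10 genes passed in any of the 22 other comparisons, which make 220 tests of a member. Of these, 34 had an unadjusted p under 0.05. Over all 16484 tested genes, 721 to 3389 had such a p in each of these 22 comparisons. DESeq2 called 2, JUN at the cimicifuga high dose (adjusted p = 0.027) and IER3 at the high against the low dose of Banhasasim-tang. Without the 4 libraries farthest from their group means, edgeR called 9. EGR1, FOS, FOSL1, IER3 and MYC were called at the bupleurum high dose, and EGR1 and FOS at the bupleurum medium dose. The rest were FOSL2 at the cimicifuga high dose and EGR1, which was lower, at the high against the low dose of cimicifuga. The smallest adjusted p was 0.0594, for JUN at the cimicifuga high dose, and the largest change in size was 0.39 log2, for EGR1 at the cimicifuga low dose (adjusted p = 0.463, edgeR). Few genes of any kind were called in most of these comparisons, so that 0 of 10 is close to the background in each.

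Under bupleurum, 0 of 10 passed against vehicle at the low, medium and high dose, where 0.801%, 0.406% and 1.52% of all tested genes were called, and 0 of 10 passed between the high and low dose, where 0.297% were. At the bupleurum high dose JUN, MYC and FOSL1 averaged 52.5 ± 1.48, 259 ± 10.0 and 33.5 ± 3.76 CPM, against 48.1 ± 2.07, 229 ± 10.8 and 26.0 ± 0.984 CPM in vehicle (SD, n = 3 each). The smallest adjusted p among the 10 in that comparison was 0.0826 (edgeR). There 5 of the 10 had an unadjusted p under 0.05, as did 2328 of the 16484 tested genes. Without the 4 libraries farthest from their group means, EGR1, FOS, FOSL1, IER3 and MYC passed there, and EGR1 and FOS at the medium dose.

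Under cimicifuga, 0 of 10 passed at the low, medium and high dose, where 0%, 0.0303% and 1.33% of all tested genes were called, and 0 of 10 between high and low dose, where 0.904% were. JUN averaged 55.3 ± 2.13 CPM and FOSL2 87.7 ± 2.30 CPM at the cimicifuga high dose, their highest levels outside the aconite groups, against 48.1 ± 2.07 and 73.0 ± 5.73 CPM in vehicle (SD, n = 3 each). Under mandarin peel, 0 of 10 passed at the low, medium and high dose, where 0.00607%, 0% and 0.0243% of all tested genes were called, 0 of 10 between high and low dose (0.0667%) and 0 of 10 in cimicifuga against mandarin peel at the high dose (0.886%).

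Under Banhasasim-tang, 0 of 10 passed at the low, medium and high dose, where 2.92%, 3.11% and 1.21% of all tested genes were called, and 0 of 10 between high and low dose, where 0.231% were. The levels of JUNB and IER3 at its high dose, 53.2 ± 9.50 and 78.8 ± 19.8 CPM (SD, n = 3), rested on library 2, with 64.1 and 101.7 CPM. Under Yijung-tang, 0 of 10 passed at the low, medium and high dose, where 1.51%, 1.64% and 1.14% of all tested genes were called, 0 of 10 between high and low dose (0.103%) and 0 of 10 in Banhasasim-tang against Yijung-tang at the high dose (0.346%). EGR1, FOSL1 and IER3 had the lowest of their 19 group means at the Yijung-tang low dose, at 31.6, 22.9 and 59.3 CPM.

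Bojungikgi-tang had 1 library per dose, which allows no test. EGR1 stood at 27.7, 26.9 and 28.6 CPM at its low, medium and high dose, below all of the other 57 libraries, against a vehicle mean of 34.3 CPM. JUNB stood at 43.6, 41.3 and 40.1 CPM against a vehicle mean of 49.1 CPM, the last 2 also below the 57. MYC lay at 244.2, 242.2 and 245.7 CPM, above the 3 vehicle libraries, which averaged 229 CPM. The log2 ratios to the vehicle mean, with 1 CPM added to both, lay between -0.39 (JUND, medium dose) and 0.10 (MYC, high dose).

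Other genes of the same pathways were taken from 6 lists chosen with earlier results of these data known. Their counts against vehicle stand beside the 8.58% of all tested genes called higher and 15.9% called in either direction at the aconite high dose. For the list counts given below, the like shares were 5.81% and 10.8% against the aconite low dose. Against bupleurum they were 5.91% and 9.86%. Without library 2 the fit of all groups called 2918, 1295 and 946 genes in all against vehicle, the low dose and bupleurum. With only the aconite high and vehicle libraries in the fit, 2 genes of the AP-1 family list and 4 of the AP-1 target list were higher, 1 of the immediate early list and 1 of the MYC partner list were lower, and 0 passed of the MYC targets and of the upstream list. In the like fits of 2 groups against the aconite low dose and against bupleurum, 2 genes of the AP-1 family list and 2 of the AP-1 target list were higher in each, and 1 of the immediate early list was lower. Over all tested genes these fits of 2 groups called 181 genes against vehicle, 99 against the low dose and 112 against bupleurum. Of 13 other AP-1 family and dimer partners, 10 were tested, and 4 were higher and 0 lower at the aconite high dose against vehicle, with a list median of 0.05 log2. JDP2, a repressor that dimerises with JUN proteins, had 9.44, 9.26 and 8.39 CPM under aconite, against 4.01, 4.37 and 4.17 CPM in vehicle, and rose by 1.10 ± 0.12 log2 (adjusted p = 1.47e-09, edgeR). ATF3, a stress-induced factor of the same fold, had 6.42, 7.36 and 6.58 CPM, against 1.86, 2.56 and 2.90 CPM in vehicle, and rose by 1.45 ± 0.15 log2 (adjusted p = 2.14e-10). FOSB, the remaining FOS gene, rose by 0.82 ± 0.14 log2 and MAFF, a small MAF protein, by 0.32 ± 0.07 log2.

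JDP2 and ATF3 were also higher within the library set. JDP2 was higher at the aconite high dose by 1.36 ± 0.12 log2 against the low dose and by 1.50 ± 0.12 log2 against bupleurum (adjusted p = 6.51e-12 and 2.71e-13, edgeR). ATF3 was higher by 1.11 ± 0.14 and 1.13 ± 0.14 log2 in these comparisons. In each of them 4 of the 10 tested genes of the list rose, and BATF2 was the 1 that fell, by 0.91 and 0.59 log2. All of these genes other than MAFF had under 10 CPM in each library named here.

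Of 26 other immediate early genes, 24 were tested, and 8 rose and 2 fell at the aconite high dose against vehicle, with a list median of 0.17 log2. BTG2, an antiproliferative gene induced by p53, went the other way from most of the list: 22.6, 18.6 and 20.9 CPM under aconite, against 44.1, 40.2 and 41.4 CPM in vehicle, a fall of 1.01 ± 0.08 on the log2 scale (adjusted p = 1.22e-13, edgeR). PHLDA1 had 165.5, 149.2 and 164.4 CPM under aconite, against 118.4, 118.2 and 122.3 CPM in vehicle, and rose by 0.42 ± 0.06 log2 (adjusted p = 1.78e-07). KLF4 and KLF10, Krüppel-like factors, rose by 0.42 and 0.28 log2. Against the aconite low dose 3 genes of the list rose and 2 fell, and against bupleurum 7 rose and 1 fell, with BTG2 falling by 1.10 and 1.12 on the log2 scale. Outside aconite, PLK2 was called higher than in vehicle at the Banhasasim-tang low, medium and high dose, by 0.31, 0.31 and 0.25 log2. It was also higher at the Yijung-tang low and medium dose, by 0.23 and 0.20 log2. MCL1 was higher at the Yijung-tang medium and high and the Banhasasim-tang low and medium dose, by 0.17 to 0.22 log2. NFKBIZ was higher at the Banhasasim-tang low and medium dose and SGK1 at its medium and high dose, by 0.18 to 0.26 log2.

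Of 25 kinases and factors upstream of the immediate early genes (EGFR, RAS, RAF, MEK, ERK, JNK, p38 and RSK genes, SRF, its ELK and MRTF partners and CREB1), all 25 were tested. At the aconite high dose 0 passed in edgeR against vehicle, with a list median of 0 log2, 2 at an unadjusted p under 0.05 and 1 call by DESeq2. Against the aconite low dose 0 passed in edgeR, with 1 at an unadjusted p under 0.05 and 1 call by DESeq2. Over all 16484 tested genes, 4602 had an unadjusted p under 0.05 against vehicle and 4138 against the aconite low dose. Without library 2, edgeR called 1 in each of these comparisons. Against bupleurum 1 rose, MAPK3 (ERK1), by 0.27 ± 0.09 log2 (adjusted p = 0.0496). These are mRNA levels and carry no measure of kinase activity.

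Of 26 AP-1 target genes of epithelial cells, 21 were tested, and 8 rose and 2 fell at the aconite high dose against vehicle, with a list median of 0.41 log2 against 0 for all tested genes. CXCL8 (interleukin 8) had 24.6, 57.2 and 31.0 CPM under aconite, against 5.08, 4.31 and 3.85 CPM in vehicle, and rose by 3.07 ± 0.17 log2 (adjusted p = 1.39e-18, edgeR). EREG, an EGFR ligand, had 187.7, 161.1 and 178.7 CPM, against 77.8, 79.6 and 88.0 CPM in vehicle, and rose by 1.10 ± 0.07 log2. VEGFA rose by 0.82 ± 0.07 log2 and TXNRD1, which NRF2 controls too, by 0.73 ± 0.05 log2. Within the library set, 8 rose and 2 fell against the aconite low dose (list median 0.30 log2), and 10 rose and 1 fell against bupleurum (list median 0.31 log2).

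CXCL8 was also higher than in vehicle at the Banhasasim-tang low, medium and high dose, by 2.66, 2.81 and 2.94 log2 (adjusted p = 6.71e-15, 4.23e-16 and 4.85e-17, edgeR), where 0 of the 10 genes were called. At the Banhasasim-tang high dose 7 of the 10 had log2 fold changes above 0, 3 of them with an unadjusted p under 0.05. Of the 16484 tested genes, 2133 had such a p there. Whether CXCL8 and the members differ in their response was not tested. MMP7, a matrix protease gene, was higher at the same 3 doses by 0.51, 0.58 and 0.66 log2. TXNRD1 rose at the cimicifuga high dose by 0.51 ± 0.05 log2 and at the bupleurum high dose by 0.33 ± 0.05 log2, where 0 members were called. VEGFA rose at the cimicifuga high dose by 0.31 ± 0.07 log2. CXCL8 also rose at the aconite low dose, by 1.36 ± 0.18 log2, and at the bupleurum high dose, by 0.69 ± 0.19 log2. Of the same list, TIMP1 was lower at the Banhasasim-tang low dose (-0.40 log2). IVL, at 0.878 CPM in vehicle, was lower at the cimicifuga and bupleurum high doses (-1.16 and -1.35 log2).

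Of 14 MYC partners and antagonists, 13 were tested, and 1 rose and 3 fell at the aconite high dose against vehicle, with a list median of -0.01 log2. MXD4, which competes with MYC for MAX, had 35.7, 27.6 and 34.8 CPM under aconite, against 59.2, 54.9 and 50.8 CPM in vehicle, and fell by 0.74 ± 0.08 on the log2 scale (adjusted p = 2.37e-10, edgeR). MXI1, another such antagonist, rose by 0.31 ± 0.07 log2, and MLXIP fell by 0.51 ± 0.10. MXD4 fell by 0.69 against the aconite low dose and by 0.63 against bupleurum on the same scale.

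Of 24 MYC targets of growth and ribosome making, 23 were tested, and 8 rose and 0 fell at the aconite high dose against vehicle, with a list median of 0.13 log2. POLR1B, a subunit of RNA polymerase I, rose by 0.30 ± 0.07 log2 (adjusted p = 0.00252, edgeR) and the nucleolar gene NOLC1 by 0.20 ± 0.05 log2 (adjusted p = 0.00449). Without library 2 the count was 4 with a median of 0.03 log2. Against the aconite low dose 10 rose with all libraries and 2 without library 2, and against bupleurum 1 and 0. Of the other lists without library 2, the AP-1 targets had 12 higher and 1 lower against vehicle, and the AP-1 family had 4 higher and 1 lower.

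**Figure D4:**
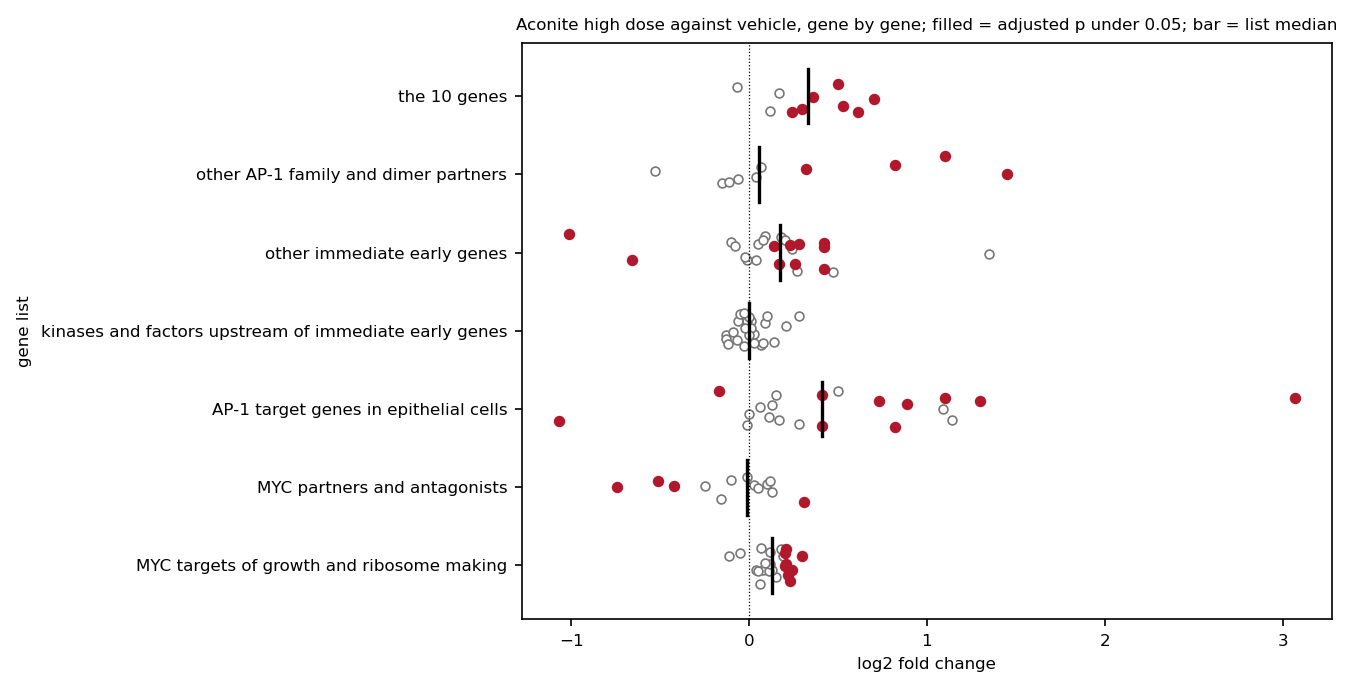
Log2 fold change at the aconite high dose against vehicle (horizontal axis) of the 10 genes and of every tested gene of the 6 lists (rows); each point is a gene, filled where the adjusted p is under 0.05, and the bar is the list median. CXCL8 lies farthest right at 3.07, BTG2 at -1.01, and no point of the upstream kinase and factor list is filled.

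The genes whose group means ran most alike to those of a member were sought among 9661 tested genes of at least 3 log2 CPM, by Pearson's r over the 19 groups. IER3 was followed most closely, by ST3GAL4 (r = 0.96), TMEM45B (0.95) and AREG (0.94), the amphiregulin gene. JUNB ran most like PLAUR (0.89), LAT (0.86) and SULT2B1 (0.84), FOS like SHC1 (0.92), SMG8 (0.89) and PEX19 (0.89), and EGR1 like SRPRA (0.91), EFNB1 (0.91) and PLCD3 (0.90). JUN ran most like AMIGO2, ME1 and MAPRE3 (0.91 each), and FOSL1 like NOP2 (0.93), TNFRSF21 (0.93) and HMGA1 (0.92). FOSL2 ran most like MFN2 (0.91), GRHL2 (0.90) and OGDH (0.88), IER2 like VMP1 (0.89), KCTD14 (0.87) and RNF34 (0.86), JUND like RCE1, RNF187 and ASB6 (0.87 each), and MYC like HSPA1A (0.84), SLC38A5 (0.82) and GPI (0.82). These values describe 19 group means that share libraries and depth for all genes.

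Among the members, the group means of FOS and EGR1 were the most alike (r = 0.87 over 19 groups), followed by those of FOSL1 and IER3 (0.82), while EGR1 and MYC had 0.07. The deviations of single libraries from their group means gave another order over the 57 libraries. JUNB and IER3 (r = 0.79) and JUNB and JUND (0.77) deviated together most, whereas FOS and EGR1 had 0.52 and FOSL1 and IER3 0.46. Some outlying libraries enter these values. JUNB, JUND and IER3 were highest of their group in Banhasasim-tang high library 2 (64.1, 50.8 and 101.7 CPM) and vehicle library 1 (56.1, 44.6 and 80.2 CPM). Bupleurum medium library 2 was lowest of the 57 for JUNB and JUND (41.5 and 24.0 CPM). How far the correlations rest on these libraries was not tested.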

How the data were processed

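RNA-seq was read from 60 HT29 libraries. Per the labels' protocols, RNA of RIN above 7 (1 µg) went into a directional MGIEasy library and 100 bp paired reads. Per the submitters' processing notes RSEM 1.3.3 and STAR 2.7.3a were used on GRCh38, with Trim Galore 0.6.5 and, for quality reports, FastQC 0.11.9. For the annotation and strand settings, the sources used here give nothing. The values are RSEM expected counts per gene as the authors deposited them, of which 8.68% were not whole. 60 of 270 columns matched these samples, and the other 210 were not used. Of the gene IDs, 56558 matched a symbol.

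Counts were rounded and tested with edgeR 4.0.16 (quasi-likelihood, TMM scaling, filterByExpr) in R 4.3.3, in 1 fit of 57 libraries in 19 groups with an adjusted p of 0.05 within each comparison. The script was tested on simulated data. No label says that replicates were separate cultures, so p-values reflect only how far these libraries spread, possibly for technical reasons. The comparisons with vehicle share its 3 libraries. Alternatives were DESeq2 1.42.0, its size factors, no filter on low counts, a replicate block, a term for the RN7SL2 level (at least 20 CPM or below), the compared groups alone and left-out libraries. For Bojungikgi-tang, 1 CPM was added before the log2 ratio, or 0.1 CPM as an alternative. The members and lists were chosen with earlier results of these data known. From each list at most 4 genes were named per comparison, those of smallest adjusted p with a mean of at least 1 log2 CPM. BATF2, MMP7 and TXNRD1 outside the aconite comparisons were named after their values were seen. So were PLK2, MCL1, NFKBIZ, SGK1, VEGFA, TIMP1 and IVL there, and IVL lies below that mean. Totals of 10.35 to 40.05 M counts set the depth. An immune marker of the lists is not reported here.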

Additional observations from a re-analysis of the deposited data

Results flagged for a closer look

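With all libraries and edgeR, JUNB was the 1 gene of the 10 for which the high-minus-low dose step differed between the aconite and the bupleurum extract by a test of the difference itself. The difference of the 2 steps was 0.43 ± 0.11 log2 (adjusted p = 0.0342, edgeR's quasi-likelihood test with an interaction contrast, 3 libraries a group). JUNB stood at 60.3 ± 1.11 CPM at the high and 49.4 ± 1.42 CPM at the low aconite dose, and at 44.1 ± 0.595 CPM at the high and 48.6 ± 2.01 CPM at the low bupleurum dose (SD, n = 3 each). The call was lost in 8 of the 12 fits that left out 1 library, with log2 differences of 0.39 to 0.44 there, and with the replicate number as a block. JUN passed as well with DESeq2, and EGR1 and IER3 passed with the compared groups only and aconite high library 2 left out. The comparison was added after the first results were seen.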

How the results depend on the processing

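Counts of members called depended on the libraries in the fit. The number of all tested genes called changed with the setting too. It is given below for some single aconite comparisons. It is not given for the pooled counts, the comparisons without aconite or the ranges from leaving out 1 library, which therefore say nothing particular to the members. At the aconite medium dose against vehicle, for example, 770 genes in all became 1142 without the filter and 1133 without the 4 libraries. Against vehicle, 11 calls over all extracts and doses became 19 without a filter on low counts, 26 without the 4 libraries farthest from their group means (aconite high 2, Banhasasim-tang high 2, vehicle 1, bupleurum medium 2), 4 with the compared groups only and 5 with the replicate number as a block. The 4 calls between high and low doses became 9 and 2 without the 4 libraries and with the compared groups only, and the 3 calls between extracts of a set became 6 without the 4 libraries and 0 with the block. The 2 calls in comparisons added within the aconite set became 4 without the filter and 4 without the 4 libraries. The 1 call in the differences of dose steps became 4 without the 4 libraries, 0 with the block, 2 with DESeq2 and, for aconite against bupleurum, 3 with the compared groups only and aconite high library 2 left out.

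By comparison, the 7 calls at the aconite high dose against vehicle became 0 with the compared groups only and 0 with the block. All genes called there went from 2615 to 181 and 26. The 4 against the low dose became 8 without the 4 libraries, 1 with the compared groups only, 0 with the block and 7 with the compared groups only and library 2 left out. In that order, all genes called went from 1787 to 2097, 99, 5 and 1192. The 3 against bupleurum became 6 without the 4 libraries, 0 with the block and 6 with the compared groups only and library 2 left out. All genes called went from 1625 to 1528, 17 and 1692. The 4 at the medium dose became 1 with the RN7SL2 term, and all genes called went from 770 to 413. The 0 at the low dose became 1 without the filter and 3 without the 4 libraries. Medium against low went to 2 calls without the filter, without the 4 libraries and with the block, and to 1 with DESeq2, with its size factors, with the RN7SL2 term and with the compared groups only. High against medium went to 0 without the filter, with the compared groups only and with the block, and aconite against bupleurum at the medium dose to 2 without the filter. Comparisons without aconite had 0 calls, and 8 without the filter, 9 without the 4 libraries, 3 with the RN7SL2 term, 1 with the compared groups only, 5 with the block and 2 with DESeq2.

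FOSL2 at the aconite high dose against bupleurum, 0.00 log2, was 0.20 without the 4 libraries and 0.20 with the compared groups only and library 2 left out. List genes called fell to 25 and 31 of 91 against vehicle, 11 and 9 of 38 between doses and 9 and 5 of 34 between extracts with the compared groups only and with the block. The cause of these changes was not tested.

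Leaving out 1 library at a time gave 7 to 16 calls against vehicle, 2 to 7 between doses, 3 to 5 between extracts, 1 to 4 in the added aconite comparisons and 0 to 2 in the differences of dose steps, and 62 to 135, 25 to 66 and 24 to 41 list genes in the 3 families. By comparison the ranges were 5 to 7 (aconite high), 2 to 4 (medium) and 0 to 0 (low) against vehicle, 2 to 6 for high against low, 0 to 0 for medium against low, 0 to 1 for high against medium, 3 to 5, 1 to 1 and 0 to 0 against bupleurum at the high, medium and low dose, 0 to 2 for the difference of steps and 0 to 2 without aconite, where Banhasasim-tang high library 3 gave the 2.

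The replicate numbers did not pair the libraries: same-numbered deviations correlated at -0.26 to 0.22, and 0 of 27 comparisons met the rule for pairing, so the block values are given only here. Replicates differed by more than counting noise (chi-square per degree of freedom 2.17 to 71.5). The smallest count of a member was 174, for FOS, and no test at matched depth was run.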
